A study of Rattus norvegicus with 28 samples.

Results

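Mitochondrial ribosomal protein genes are the nuclear genes, named Mrpl or Mrps, for the proteins of the ribosome inside mitochondria. They were taken by name: 76 records of the count table carried such a symbol, 1 of them a pseudogene record of Mrps36, and the 75 protein-coding records of 73 symbols were kept, out of 36387 records in all. Of the 75 records, 73 passed the filter on low counts. The other two, a 2nd record of Mrpl36 with 1 read in all libraries together and a 2nd record of Mrpl53 with 0 reads, were left out of every test. RNA of prefrontal cortex was counted in adult male Sprague-Dawley rats that were 8 weeks old on arrival, with tissue taken 24 h after the injections. Every animal had an intraperitoneal injection in 5% Tween-80 and then a 2nd injection in saline, with 4 animals in each of 7 groups. Vehicle animals had Tween-80 and saline. Psilocybin animals had Tween-80, then psilocybin at 1 or 3 mg/kg. Ketanserin animals had ketanserin at 1 or 3 mg/kg, then saline. The groups given both drugs had ketanserin, then psilocybin, with equal doses of 1 or 3 mg/kg. Psilocybin is a prodrug of psilocin, an agonist at serotonin receptors. Ketanserin is an antagonist of the serotonin 2A receptor.

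Mitochondria keep their own small genome, whose protein genes encode core subunits of the respiratory chain and the ATP synthase. Those messages are translated by a dedicated ribosome of a large and a small subunit, whose RNAs come from the mitochondrial genome and whose proteins are all made in the cytosol from nuclear genes and imported. Many of these proteins have a bacterial counterpart, and others were gained in mitochondria. In neurons, whose synapses need much ATP, this ribosome is needed to assemble the respiratory chain.

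Total counts per library were 12783067 to 18538414 and the members took 0.188 to 0.362% of them. Chi-square per gene, computed for each pair of libraries, was at least 5.93 (at most 163), so no pair agreed within sampling noise. Interneuron markers (Gad1, Gad2, Pvalb, Sst and Vip) were all detected in every group and summed to 639 to 1136 CPM (counts scaled to library size with TMM factors). The excitatory neuron markers Slc17a7, Neurod6, Tbr1 and Camk2a were detected in every library and summed to 3035 to 4149 CPM. Choroid plexus markers summed to 0 to 15.9 CPM, meningeal markers to 64.4 to 215 CPM and oligodendrocyte markers to 2247 to 8408 CPM. Replicate 4 of both drugs at 3 mg/kg stood apart, where 19602 records had no read while every remaining library had 15344 to 16657 such records. Values without it are given beside the member results that it moves most. Replicate numbers only name libraries and pair nothing across groups.

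Levels were compared between genes per length, as the FPKM (fragments scaled to gene length and library size) the authors deposited. The median over the 73 tested members of the mean FPKM was 28.1, against 5.79 over the 17404 genes tested, 189 for cytosolic ribosomal protein genes and 150 for nuclear respiratory chain genes. The highest was Mrpl33, the counterpart of bacterial L33, at a mean of 165 FPKM (55.6 to 259 over libraries). It was followed by Mrpl54, a protein of the mitochondrial large subunit with no bacterial counterpart, at 106 (62.2 to 183), and by Mrpl17, which lies near the exit of the nascent peptide, at 101 (61.8 to 140). Their ranges over libraries overlapped, but library by library Mrpl33 was above Mrpl54 in 27 of 28, and Mrpl54 above Mrpl17 in 19. The lowest of the tested members were Mrpl1, a protein of the mobile L1 stalk, at 3.23 FPKM (0.451 to 5.87), Mrpl36 at 4.29 (0.208 to 30) and Mrpl47, the counterpart of bacterial L29, at 4.58 (3.22 to 6.92). Library by library, Mrpl36 was above Mrpl1 in 8 of 28, and Mrpl47 above Mrpl36 in 23. By structure, the medians were 31.1 FPKM for large subunit proteins with a bacterial counterpart (27 tested), 30.5 for those found only in mitochondria (19 tested, Mrps30 and Mrps18a included, which sit in the large subunit despite their names), 26.4 for small subunit proteins with a counterpart (16) and 20.3 for those without (10). Mrps36, now known as a part of the 2-oxoglutarate dehydrogenase complex and kept here because its name fits, was at 16.3 FPKM.

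**Figure D1:**
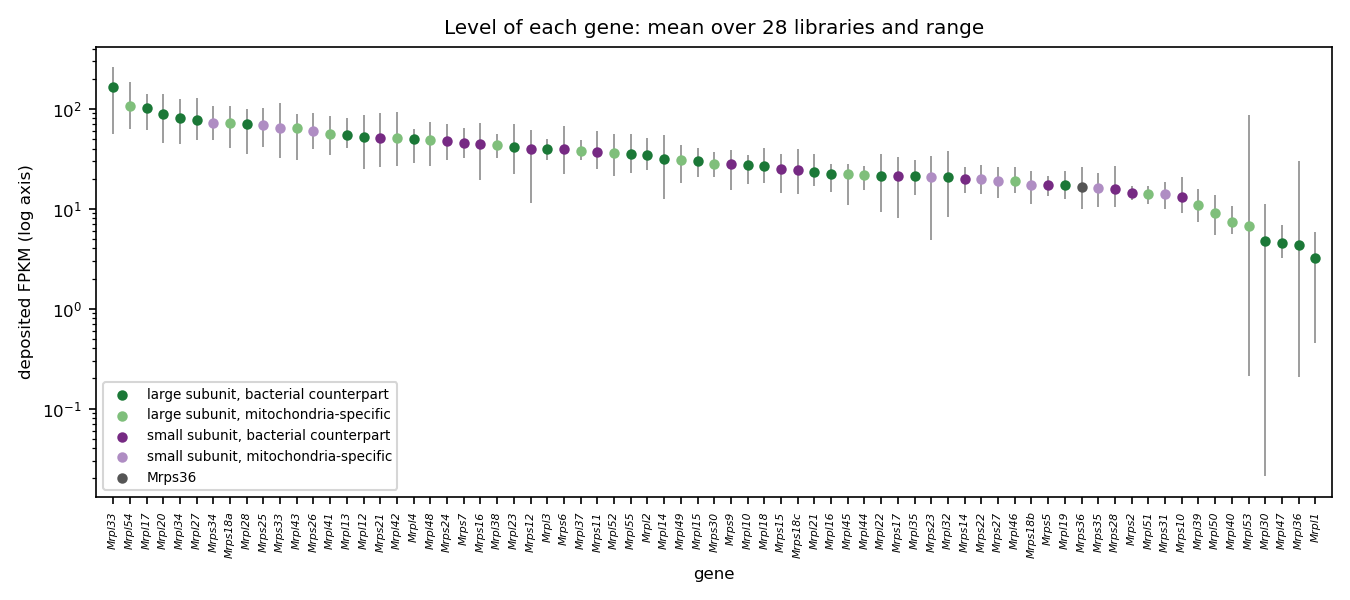
Deposited FPKM of the 73 tested members on a log axis, ordered by level, where points are means over the 28 libraries coloured by subunit and origin and lines run from the lowest to the highest library. Mrpl33 stands at 165 and Mrpl1 at 3.23, and the widest ranges are those of Mrpl30, Mrpl53 and Mrpl36.

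Spread between animals of a group was, at the median, slightly below that of all genes tested, without matching for level. The pooled within-group SD of log2 CPM had a median of 0.306 over the members, against 0.345 over all genes tested. The steadiest were Mrps2, the counterpart of bacterial S2, with an SD of 0.124, Mrpl51 with 0.150 and Mrpl3, which reaches towards the peptidyl transferase centre, with 0.163. These stand at the 5.83, 11.4 and 14.3 percentiles of all genes tested. The most variable were Mrpl30 with 2.23, Mrpl53 with 1.76 and Mrpl36 with 1.18, at the 99.7, 98.6 and 88.4 percentiles. In the deposited coordinates 11 of the 75 records overlap another gene on the opposite strand. Among them are Mrpl30 with Mitd1, Mrpl47 with Actl6a, Mrps2 with RGD1306233, Mrps7 with Gga3 and Mrps9 with the small RNA gene SNORA17. Mrps28 also overlaps SNORA38 on its own strand. Whether the counting used strand is not given in these sources, so reads of such pairs may have been shared or lost.

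Promoter sequences of 58 of the 73 symbols were matched in RefSeq on the GRCr8 build, each 300 bases long from 250 before to 50 after the annotated start. They were searched on both strands for 4 motifs of factors known to drive nuclear genes of mitochondria or housekeeping genes: GCGCANGCG for nuclear respiratory factor NRF1, CCGGAAG for ETS factors such as GABPA, AAGATGGCG for YY1 and CCAAT for NF-Y. The ETS motif was present in 19 of 58 member promoters (32.8%), against 11.2% of 18999 protein-coding promoters of the same length. The YY1 motif was present in 9 (15.5% against 2.29%) and the NRF1 motif in 10 (17.2% against 8.04%). The NF-Y motif was present in 25 (43.1% against 38.4%). At least 1 of the 4 was found in 75.9% of member promoters and 50.7% of protein-coding promoters, and the ETS and YY1 motifs stood together in 4 (6.90% against 0.511%). Of the 9 YY1 matches, 6 were among the 17 promoters of large subunit proteins found only in mitochondria. These are matches of letters, not sites shown to be bound. The comparison is matched for promoter length only, not for the content of CG pairs, which the NRF1, ETS and YY1 motifs contain. The promoters shown are that of Mrpl36, whose tested record carries the group difference, and 3 with many matches. Promoters were matched by symbol alone, and another record of the count table, left out of the tests, also carries the symbol Mrpl36. Which of these records the promoter belongs to was not tested. Matches are in capitals on either strand. Mrps30 holds 4 matches, as does Mrpl36, and Mrpl17 and Mrps18a are the most highly expressed of 8 promoters tied at 3, where a palindromic match counts on each strand:
Mrpl36 (chr1:31795072-31795371, minus strand): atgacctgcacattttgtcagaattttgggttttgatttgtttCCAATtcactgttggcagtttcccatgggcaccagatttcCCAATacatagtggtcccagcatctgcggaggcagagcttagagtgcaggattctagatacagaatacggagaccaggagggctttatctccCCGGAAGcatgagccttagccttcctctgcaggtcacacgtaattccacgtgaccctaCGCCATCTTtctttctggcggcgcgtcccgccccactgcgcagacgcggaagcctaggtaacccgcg
Mrps30 (chr2:52195855-52196154, minus strand): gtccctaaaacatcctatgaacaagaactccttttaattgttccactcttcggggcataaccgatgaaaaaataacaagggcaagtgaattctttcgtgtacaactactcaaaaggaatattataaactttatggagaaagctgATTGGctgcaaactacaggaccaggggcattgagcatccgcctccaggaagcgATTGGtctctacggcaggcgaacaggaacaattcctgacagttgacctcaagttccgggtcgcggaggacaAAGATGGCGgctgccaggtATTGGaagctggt
Mrpl17 (chr1:169575650-169575949, minus strand): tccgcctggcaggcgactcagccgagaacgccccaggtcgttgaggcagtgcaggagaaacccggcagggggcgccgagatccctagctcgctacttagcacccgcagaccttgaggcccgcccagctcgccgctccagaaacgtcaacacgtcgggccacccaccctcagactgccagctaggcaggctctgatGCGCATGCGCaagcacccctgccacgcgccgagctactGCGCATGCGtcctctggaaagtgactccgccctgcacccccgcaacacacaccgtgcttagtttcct
Mrps18a (chr9:22367331-22367630, minus strand): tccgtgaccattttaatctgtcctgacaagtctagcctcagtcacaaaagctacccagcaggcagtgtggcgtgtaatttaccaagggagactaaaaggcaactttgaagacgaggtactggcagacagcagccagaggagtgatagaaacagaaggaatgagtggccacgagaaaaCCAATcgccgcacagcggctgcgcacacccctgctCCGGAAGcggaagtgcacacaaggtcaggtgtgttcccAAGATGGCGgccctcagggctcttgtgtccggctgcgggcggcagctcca

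The Mrpl36 promoter holds both NF-Y motifs far upstream, an ETS motif that begins 75 bases before the start and a YY1 motif, read here on the opposite strand as CGCCATCTT, that begins 17 bases before it. Mrpl17 has the NRF1 motif at 2 places, the first of which is palindromic and was counted on each strand. In Mrps30 and Mrps18a the YY1 motif AAGATGGCG lies at or just after the annotated start. Divergent neighbours were common: 18 of 58 members (31.0%) have another gene starting on the opposite strand within 1000 bases upstream, against 10.4% of protein-coding genes. In 1 such pair both are members, since Mrps11 and Mrpl46 start 234 bases apart. Others are Mrpl27 with the nuclease subunit gene Eme1 (44 bases), Mrpl51 with the condensin gene Ncapd2 (50), Mrpl30 with Mitd1 (194) and Mrpl47 with Ndufb5, a complex I gene (244).

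Mrpl36, the counterpart of the very small bacterial protein L36, was the member with a difference between the groups. Its record (ENSRNOG00000047971) lies on the minus strand of rn6 chromosome 1 from 32570296 to 32570589, with a counted length of 294 bases. In vehicle animals it was at 0.946, 0.462, 0.248 and 0.206 CPM in replicates 1 to 4. After psilocybin at 1 mg/kg it was at 7, 8.92, 1.41 and 6.36 CPM. All 4 values lie above all 4 vehicle values, and replicate 3 of psilocybin lies well below the other three. After psilocybin at 3 mg/kg the values were 0.497, 0.169, 0.694 and 0.408 CPM, within the vehicle range but for the 2nd replicate, which lies just below it. Ketanserin at 1 mg/kg gave 0.208, 0.287, 0.599 and 0.215 CPM, and ketanserin at 3 mg/kg gave 0.847, 0.116, 0.0690 and 0.252 CPM. Both groups overlap vehicle. With both drugs at 1 mg/kg the values were 1.16, 1.04, 0.682 and 0.285 CPM, all below the lowest psilocybin value of 1.41. With both drugs at 3 mg/kg they were 0.158, 2.16, 0.0620 and 0.229 CPM, so that replicate 2 of this group is the highest library outside psilocybin at 1 mg/kg.

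The reads behind these levels are few. Over 4 libraries they sum to 360 after psilocybin at 1 mg/kg (21 to 130 per library) and to 28 in vehicle animals (3 to 14), and to 19 to 49 in the other 5 groups. For any difference among the 7 groups, edgeR's quasi-likelihood F test with Benjamini-Hochberg adjustment called 3 of 17404 genes (0.0172%), and 1 of the 73 members, Mrpl36, was among them. Its F in edgeR's test was 10.5 (unadjusted p = 7.08e-06, adjusted p = 0.0411). At an unadjusted p under 0.05 the same test gave 2 members, Mrpl36 and Mrpl53, and 2.22% of all genes. DESeq2's likelihood ratio test called 15 genes, again with Mrpl36 as the member (adjusted p = 5.85e-07). The edgeR call was lost when a single library was left out in 24 of 28 cases (adjusted p of 0.0501 to 0.590, highest without replicate 2 of psilocybin at 1 mg/kg). It was kept without replicate 1 of ketanserin at 3 mg/kg (0.0226), replicate 3 of psilocybin at 1 mg/kg (0.0276), replicate 2 of both drugs at 3 mg/kg (8.52e-04) or replicate 3 of that group (0.0370).

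For psilocybin at 1 mg/kg against vehicle, Mrpl36 had a log2 fold change of 3.65 (SE 0.824, 95% interval 1.96 to 5.35, unadjusted p = 1.57e-04), the 2nd lowest p of all genes tested, and edgeR's adjusted p was 1.00. DESeq2 called it in this comparison (log2 fold change 3.68, adjusted p = 0.0325). Groups that do not overlap, with the treated group higher, were found for 1 of the 73 members and for 0.563% of all genes tested. Set against psilocybin at 1 mg/kg, both drugs at that dose gave it a value of -2.89 on the log2 scale (SE 0.784, 95% interval -4.50 to -1.28, unadjusted p = 0.00108, edgeR adjusted p = 0.894), again with groups that do not overlap, as for 1.73% of all genes in that direction. The interaction at 1 mg/kg (the difference between both drugs and ketanserin, less that between psilocybin and vehicle) was -2.40 (SE 1.18, unadjusted p = 0.0513, edgeR adjusted p = 0.938). Against vehicle the log2 fold changes of the other groups were -0.09 (SE 0.848) for psilocybin at 3 mg/kg, -0.49 (SE 0.874) and -0.53 (SE 0.869) for ketanserin at 1 and 3 mg/kg, and 0.76 (SE 0.816) and 0.47 (SE 0.826) for both drugs at 1 and 3 mg/kg. The value at 3 mg/kg of both drugs turned to -1.61 without its replicate 2.

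The gene record nearest to Mrpl36 and the single other within 20 kb of it is LOC679739, described in the deposited table as NADH dehydrogenase (ubiquinone) Fe-S protein 6, a subunit of respiratory complex I. It is on the plus strand from 32573228 to 32581781, 2639 bases away. It was above 5 CPM in 8 libraries (7.96 to 73.9) and at 0.451 to 3.91 CPM in the other 20. After psilocybin at 1 mg/kg it was at 1.18, 13.6, 1.01 and 72.5 CPM, so the libraries where Mrpl36 was high include low and high ones of this neighbour. Its log2 fold change there was 0.73 (SE 1.55, unadjusted p = 0.644, edgeR adjusted p = 1.00). It was not called in any of the 12 pairwise and interaction comparisons.

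**Figure D2:**
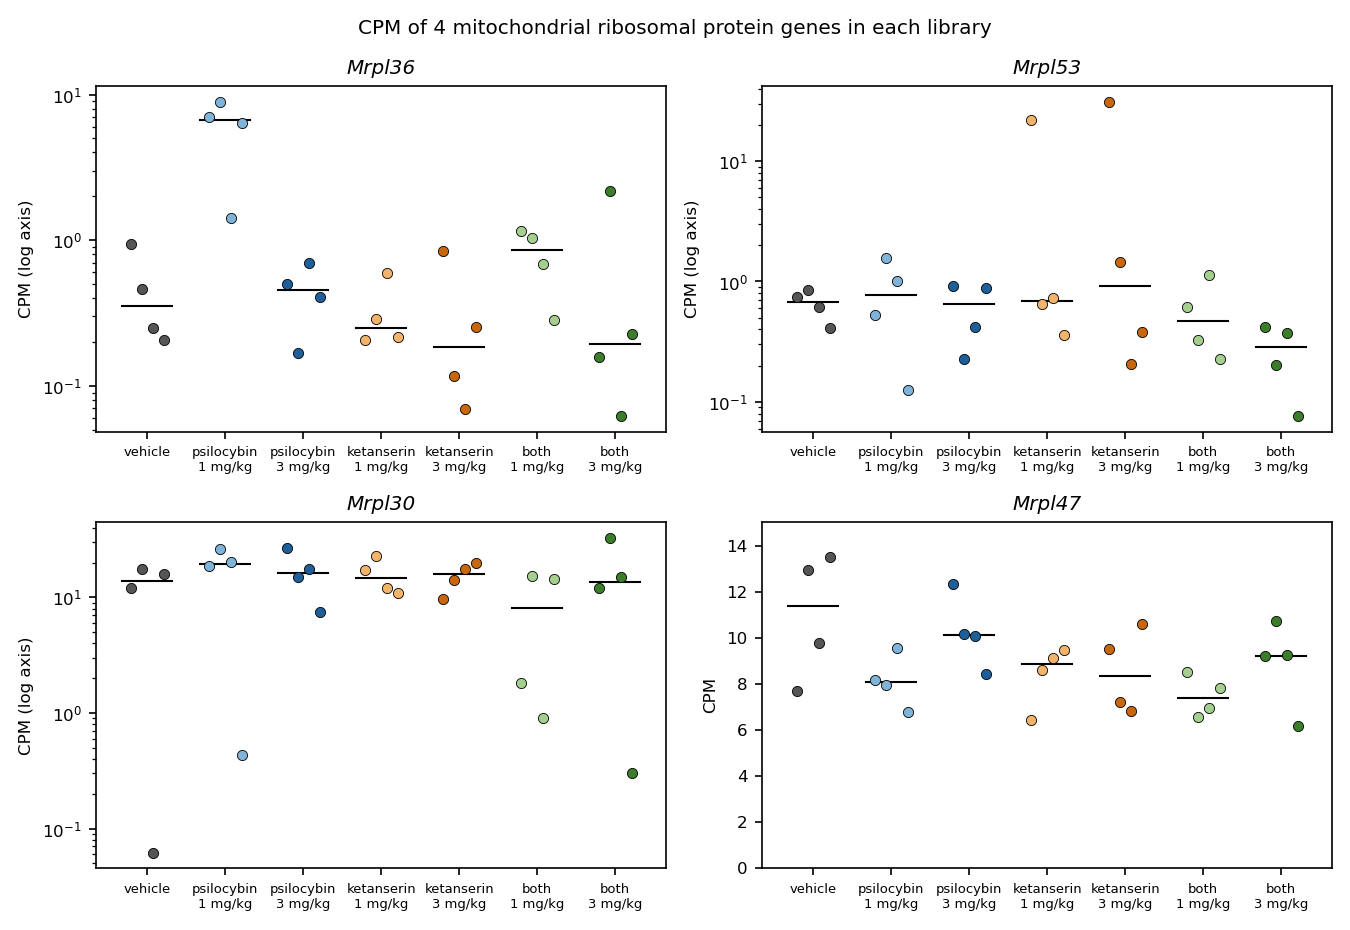
CPM of Mrpl36, Mrpl53, Mrpl30 (log axes) and Mrpl47 (linear axis from 0) in each of the 28 libraries, by treatment group, where points are libraries and lines are medians of 4. Mrpl36 is at 1.41 to 8.92 CPM after psilocybin at 1 mg/kg and at most 2.16 CPM elsewhere. The high values of Mrpl53 are single libraries of the groups given ketanserin alone. The low values of Mrpl30 fall in several groups, with more than a single library for both drugs at 1 mg/kg.

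Mrpl53 (ENSRNOG00000053109), a large subunit protein found only in mitochondria, was high in 2 libraries. It was at 21.8 CPM in replicate 1 of ketanserin at 1 mg/kg and at 31.2 CPM in replicate 1 of ketanserin at 3 mg/kg. The other 26 libraries were at 0.0762 to 1.58 CPM. The remaining values were 0.645, 0.732 and 0.359 CPM at 1 mg/kg and 1.45, 0.207 and 0.378 CPM at 3 mg/kg, against 0.743, 0.858, 0.619 and 0.411 CPM in vehicle animals, so both groups overlap vehicle. The log2 fold change was 3.15 (SE 1.27, unadjusted p = 0.0209) at 1 mg/kg and 3.64 (SE 1.29, unadjusted p = 0.00935) at 3 mg/kg. Without replicate 1 it turned to -0.16 at the lower dose, and it was 0.06 at the higher dose. The comparisons that contain these libraries carry the same values: -3.37 (SE 1.29) for both drugs against ketanserin at 1 mg/kg, -4.86 (SE 1.40) for both drugs against ketanserin at 3 mg/kg and -4.74 (SE 1.92, unadjusted p = 0.0211) for the interaction at 3 mg/kg, which was -1.17 without replicate 1 of ketanserin at 3 mg/kg. None passed the edgeR test after adjustment.

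Mrpl30 (ENSRNOG00000049330), the counterpart of bacterial L30, showed the opposite pattern of a few low libraries. It was under 2 CPM in 5 libraries and at 7.41 to 32.5 CPM in the other 23. The low values were 0.0619 CPM in replicate 3 of vehicle, 0.436 in replicate 4 of psilocybin at 1 mg/kg, 1.83 and 0.910 in replicates 1 and 3 of both drugs at 1 mg/kg and 0.305 in replicate 4 of both drugs at 3 mg/kg. They fall in 4 of the 7 groups, vehicle included. Mitd1, which overlaps Mrpl30 on the opposite strand, was at 5.71 to 8.79 CPM in those 5 libraries and at 4.42 to 10.1 CPM in the others, so its level covers the same range in both. Mrpl1 (ENSRNOG00000002070) ran from 0.501 to 6.60 CPM, with its lowest values in replicate 2 of ketanserin at 1 mg/kg (0.501) and replicate 1 of ketanserin at 3 mg/kg (0.521). The next lowest were replicate 2 of both drugs at 3 mg/kg (16 reads) and replicate 3 of vehicle (20 reads).

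Most members moved together from library to library. A score was taken as the median, over the 73 tested members, of the difference of log2 CPM from the gene's own mean over the 28 libraries. It was highest in replicate 1 of psilocybin at 3 mg/kg (0.588) and lowest in replicate 4 of both drugs at 3 mg/kg (-0.630). Replicate 2 of psilocybin at 1 mg/kg (0.408), replicate 2 of vehicle (0.402) and replicate 2 of both drugs at 3 mg/kg (0.361) were also high. Replicate 3 of ketanserin at 3 mg/kg (-0.383), replicate 4 of both drugs at 1 mg/kg (-0.315) and replicate 4 of ketanserin at 1 mg/kg (-0.293) were low. These high libraries include a vehicle animal and an animal given both drugs. The 4 low ones all had ketanserin, alone or with psilocybin, as did most libraries of the study. The next lowest score was that of replicate 1 of vehicle (-0.209), and where the list of low libraries ends was chosen after seeing the scores. The number of members above their own mean ran from 4 to 69 of 73 between libraries. In bulk tissue, fewer cells of a type and less RNA per cell cannot be told apart.

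Group by group, the score was 0.03 ± 0.273 (SD, n = 4; -0.209 to 0.402) in vehicle animals, 0.11 ± 0.235 (-0.157 to 0.408) after psilocybin at 1 mg/kg. The higher psilocybin dose gave 0.16 ± 0.291 (-0.0448 to 0.588). It was 0.02 ± 0.206 (-0.293 to 0.135) after ketanserin at 1 mg/kg, and the higher ketanserin dose gave -0.10 ± 0.229 (-0.383 to 0.102). With both drugs it was -0.07 ± 0.196 (-0.315 to 0.161) at the lower dose, while the higher dose gave -0.10 ± 0.409 (-0.630 to 0.361). Without replicate 4 the latter mean was 0.08 ± 0.249 (SD, n = 3), an alternative chosen after seeing the data. All 7 ranges overlap, and the highest and the lowest group mean differ by less than the pooled SD within groups of 0.271.

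Single members followed the rest to different degrees. Of the 73, 62 deviated in the same direction as the median of the other members in at least 20 of 28 libraries (median 23). The share of all genes tested that do so is not given here, so this count does not set the members apart. Mrpl23, a protein at the mouth of the exit tunnel, and Mrpl28, the counterpart of bacterial L28, did so in 28 of 28, and Mrpl54, Mrpl38, Mrps24, Mrps34 and Mrps36 in 27. Mrpl51 did so in 8, Mrpl1 in 13, Mrpl36 in 15, Mrps10 and Mrpl39 in 16 and Mrpl30 and Mrpl47 in 17. Mrpl51 was at 26.4 CPM in the library of highest score and at 38.3 CPM in that of lowest score, while Mrpl54 was at 113 and 37.7 CPM there. The 4 classes by subunit and origin had the sign of the whole set in 26 to 28 of 28 libraries. Each class is part of that set, so some of this agreement is built in.

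**Figure D3:**
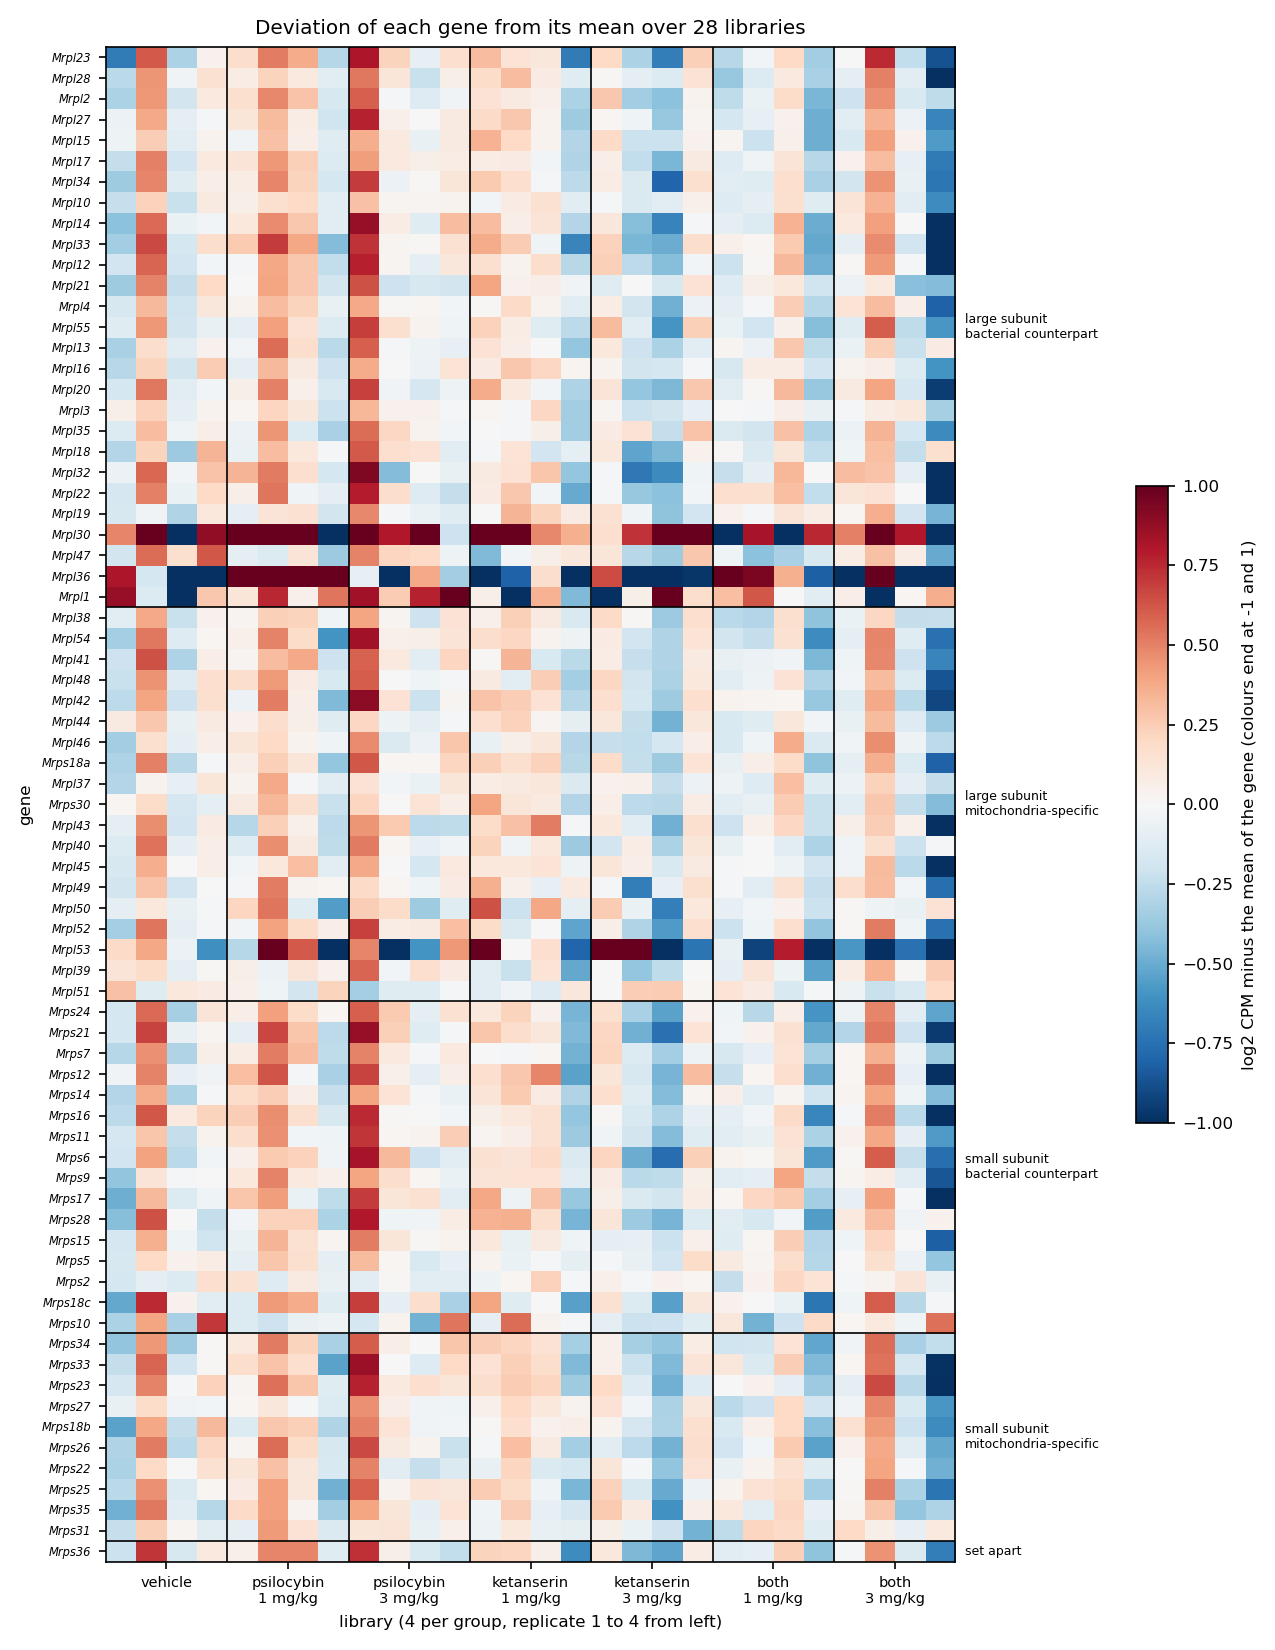
Deviation of log2 CPM of each of the 73 tested members from its own mean over the 28 libraries (red above, blue below, colours ending at -1 and 1), with libraries in columns by group and genes in lines by subunit and origin. Replicate 1 of psilocybin at 3 mg/kg is red and replicate 4 of both drugs at 3 mg/kg is blue for nearly all genes, while Mrpl36, Mrpl53, Mrpl30 and Mrpl1 stand out against their columns.

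Other lists moved with the members. The median deviation of 81 nuclear respiratory chain genes had the sign of the member score in 28 of 28 libraries (-0.785 to 0.691), that of 85 cytosolic ribosomal protein genes in 26 (-0.488 to 0.729) and that of 11 protein genes of the mitochondrial genome in 23 (-0.333 to 0.534). The median over all genes tested stayed between -0.08 and 0.04. TMM scaling largely holds this median in place, so it is no contrast to the moving lists. The members are short, with a median counted length of 1110 bases against 2193.5 over all genes tested. Across genes within a library, Spearman's rho between deviation and gene length ran from -0.328 in the library of highest score to 0.275 in that of lowest score, and it had the opposite sign to the score in 27 of 28 libraries. Genes are not independent replicates, and these values are a description. Summed interneuron markers were also highest in replicate 1 of psilocybin at 3 mg/kg (1136 CPM) and lowest in replicate 4 of both drugs at 3 mg/kg (639 CPM). The sum of the 4 excitatory neuron markers ran the other way in these libraries, at 3217 CPM in the first and at 4149 CPM, the highest of all, in the second. The part of gene length, RNA quality and cell makeup in the score was not tested.

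**Figure D4:**
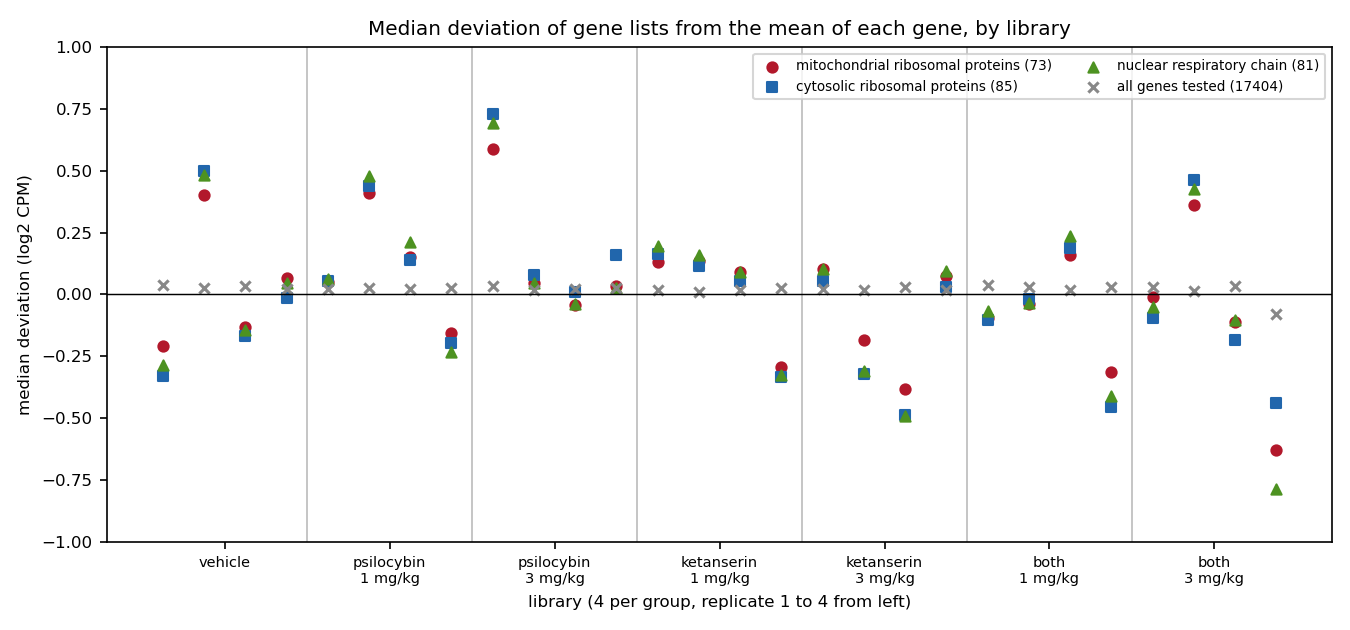
Median deviation of log2 CPM from each gene's mean, per library and by treatment group, for the 73 members, 85 cytosolic ribosomal protein genes, 81 nuclear respiratory chain genes and 17404 genes tested. The first 3 lists rise and fall together between libraries of a group, from -0.630 to 0.588 for the members. The median of all genes tested stays near 0, where TMM scaling largely holds it.

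Psilocybin against vehicle asked which transcripts differ a day after the drug. At 1 mg/kg edgeR called 0 of 73 members and 0% of 17404 genes. At an unadjusted p under 0.05 there were 2 members, Mrpl36 higher and Mrpl47 lower, against 1.66% of all genes. DESeq2 called 1 member, Mrpl36, and 3 genes in all. Of the 73 log2 fold changes 57 were above 0, against 47.5% of all genes, with a median of 0.08 against -0.01 over all genes. When single libraries were left out, the median ran from -0.03 (without replicate 2 of psilocybin at 1 mg/kg) to 0.21 (without replicate 2 of vehicle), and it was also below 0 without replicate 1 of vehicle. Mrpl47 was at 7.71, 12.9, 9.79 and 13.5 CPM in vehicle animals and at 8.18, 7.96, 9.55 and 6.80 CPM after psilocybin at 1 mg/kg. The groups overlap, with 3 vehicle libraries above every psilocybin one (log2 fold change -0.43, SE 0.200, unadjusted p = 0.0395, edgeR adjusted p = 1.00). Mrps9, the counterpart of bacterial S9, had a log2 fold change of 0.25 (SE 0.170; 0.13 without replicate 2 of psilocybin) and Mrps10, the counterpart of bacterial S10, one of -0.30 (SE 0.221; -0.07 without replicate 4 of vehicle).

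At 3 mg/kg of psilocybin edgeR called 0 of 73 members and 0% of all genes, and DESeq2 called 0 of either. At an unadjusted p under 0.05 there was 1 member, Mrpl51, against 3% of all genes. Mrpl51 was at 40.9, 30.7, 36 and 35.3 CPM in vehicle animals and at 26.4, 30.7, 30.7 and 33.1 CPM after psilocybin. The groups overlap (log2 fold change -0.24, SE 0.114, unadjusted p = 0.0442, edgeR adjusted p = 0.997). Of the 73 values 62 were above 0 against 47.8% of all genes, with a median of 0.12 against -0.01. When single libraries were left out it ran from -0.02 (without replicate 1 of psilocybin at 3 mg/kg, the library of highest score) to 0.27 (without replicate 2 of vehicle). Mrps11 (log2 fold change 0.29, SE 0.180) and Mrps34 (0.30, SE 0.213), both of the small subunit, had the lowest p above vehicle, and Mrps10 (-0.16, SE 0.221) followed Mrpl51 below it. Without replicate 1 of psilocybin at 3 mg/kg Mrps11 was at 0.10 and Mrps34 at 0.15, and without replicate 2 of vehicle Mrps34 was at 0.50.

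Ketanserin against vehicle gave 0 called members in edgeR at either dose, with 0% of all genes called at 1 mg/kg and 0% at 3 mg/kg, and DESeq2 called 0 members and 1 gene at each. At an unadjusted p under 0.05 the single member at each dose was Mrpl53, against 2.06% and 2% of all genes. At 1 mg/kg 34 of 73 members were above 0 against 44.2% of all genes, with a median of -0.01 against -0.02. At 3 mg/kg 8 of 73 were above 0 against 45.4%, with a median of -0.12 against -0.02. When single libraries were left out, these medians ran from -0.08 to 0.15 and from -0.20 to 0.03, lowest without replicate 1 of vehicle and highest without replicate 2 of vehicle, its library of highest score. The lowest p below vehicle at 3 mg/kg was that of Mrpl32, a protein matured by the mitochondrial m-AAA protease. It was at 14.7, 22.8, 15 and 18.6 CPM in vehicle animals and at 15.1, 9.29, 9.80 and 14.9 CPM after ketanserin, which overlap (log2 fold change -0.54, SE 0.286, unadjusted p = 0.0726, edgeR adjusted p = 1.00). Mrpl47 had log2 fold changes of -0.39 (SE 0.200) and -0.36 (SE 0.200) at the lower and higher dose, Mrpl39 one of -0.22 (SE 0.162) at the lower dose and Mrpl19 one of 0.26 (SE 0.159) there. Mrps2 was closest to a rise at the higher dose after Mrpl53, at 0.08 (SE 0.0950).

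With both drugs at 1 mg/kg against vehicle edgeR called 0 of 73 members and 0% of all genes, and DESeq2 called 0 members and 1 gene. The member at an unadjusted p under 0.05 was Mrpl47, against 1.3% of all genes. It was at 8.5, 6.58, 6.97 and 7.81 CPM, and 1 vehicle library, at 7.71, lies inside that range (log2 fold change -0.56, SE 0.201, unadjusted p = 0.0104, edgeR adjusted p = 1.00). Of 73 members 11 were above 0 against 46.9% of all genes, with a median of -0.12 against -0.01. That median ran from -0.20 (without replicate 3 of both drugs at 1 mg/kg) to 0.04 (without replicate 2 of vehicle). Mrpl38, a large subunit protein found only in mitochondria, had a log2 fold change of -0.22 (SE 0.153), Mrpl19 one of 0.15 (SE 0.159) and Mrps2 one of 0.10 (SE 0.0950). With both drugs at 3 mg/kg edgeR called 0 members and 0.00575% of all genes (1 gene), and DESeq2 likewise 0 members and 1 gene. At an unadjusted p under 0.05 there were 0 members, against 3.13% of all genes. Of 73 members 16 were above 0 against 46.4%, with a median of -0.10 against -0.02. It ran from -0.28 (without replicate 2 of both drugs at 3 mg/kg) to 0.06 (without replicate 2 of vehicle), and was 0.04 without replicate 4 of both drugs at 3 mg/kg. The lowest p below vehicle were those of Mrpl47 (-0.31, SE 0.200) and Mrpl45 (-0.26, SE 0.174), which holds the ribosome to the inner membrane, and those above were of Mrps2 (0.07, SE 0.0950) and Mrpl39 (0.11, SE 0.162). Without replicate 4 of both drugs at 3 mg/kg Mrpl47 was at -0.17 and Mrpl45 at -0.06. Mrpl47 was thus below vehicle in 5 of the comparisons by the named rule, all 5 of which share the same 4 vehicle libraries. Its record also overlaps that of Actl6a on the opposite strand.

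The groups given both drugs were also set against psilocybin alone. This difference holds any effect of ketanserin itself as well as any change in the response to psilocybin. The interactions, given further on, take the first of these into account. At 1 mg/kg edgeR called 0 members and 0% of all genes, and DESeq2 0 members and 1 gene, with 1 member (Mrpl36) at an unadjusted p under 0.05 against 4.13% of all genes. Of 73 members 4 were above 0 against 51.7% of all genes, with a median of -0.17 against 0.01 (-0.25 to -0.07 when single libraries were left out). At 3 mg/kg edgeR called 0 members and 0% of all genes, and DESeq2 0 members and 1 gene, with 0 members at an unadjusted p under 0.05 against 5.74%. There 6 of 73 were above 0 against 48.5%, with a median of -0.23 against -0.01 (-0.40 to -0.06 when single libraries were left out). The value nearest 0 came without replicate 1 of psilocybin at 3 mg/kg, and it was -0.09 without replicate 4 of both drugs. Against ketanserin alone edgeR called 0 members at either dose, with 0% of all genes called at 1 mg/kg and 0% at 3 mg/kg. DESeq2 called 0 members at both, with 0 genes at 1 mg/kg and 5 at 3 mg/kg. Mrpl53 was the single member at an unadjusted p under 0.05 at each dose, against 2.92% and 3.41% of all genes. Of 73 members 14 were above 0 at 1 mg/kg against 53.3% of all genes (median -0.11), and 46 at 3 mg/kg against 52% (median 0.03). When single libraries were left out the first median ran from -0.21 to -0.03. The last ran from -0.14 (without replicate 2 of both drugs at 3 mg/kg) to 0.19 (without replicate 4 of that group). At 3 mg/kg Mrpl39 (log2 fold change 0.33, SE 0.162) and Mrps10 (0.34, SE 0.221) were higher in every library given both drugs than in every library given ketanserin, as were 0.649% of all genes. In the other 17 of 20 directions of the pairwise comparisons 0 members had groups that do not overlap, against 0.396 to 1.62% of all genes.

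The interactions gave 0 called members in edgeR, with 0% of all genes called at 1 mg/kg and 0% at 3 mg/kg, and DESeq2 called 0 genes in both. At an unadjusted p under 0.05 there were 0 members at 1 mg/kg against 4.09% of all genes, and 1 member, Mrpl53, at 3 mg/kg against 3.2%. Of 73 members 9 were above 0 at 1 mg/kg against 53.7% of all genes (median -0.17, against 0.04), and 20 at 3 mg/kg against 52.2% (median -0.09, against 0.02). The first ran from -0.34 to -0.07 when single libraries were left out. The second ran from -0.26 (without replicate 2 of both drugs at 3 mg/kg) to 0.06 (without replicate 1 of psilocybin at 3 mg/kg), and was 0.05 without replicate 4 of both drugs. The median width of the 95% interval to each side of a member's log2 fold change was 0.42 in pairwise comparisons and 0.59 in interactions, so shared differences of the size of these medians were not detectable gene by gene. All comparisons with vehicle share its 4 libraries, and members share libraries within a comparison, so the counts above 0 are no independent evidence of direction.

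**Figure D5:**
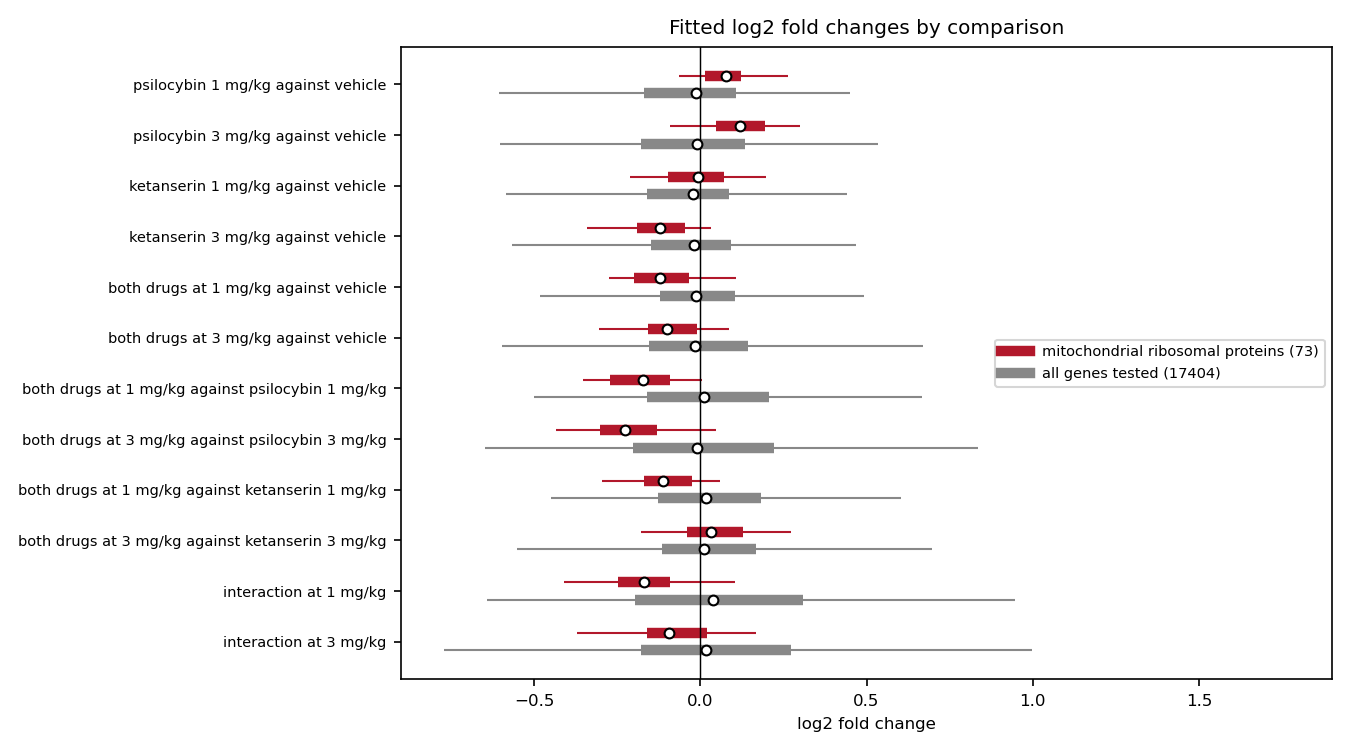
Fitted log2 fold changes in the 12 comparisons for the 73 members (red) and the 17404 genes tested (grey), where circles are medians, thick bars run from the 25th to the 75th percentile and thin lines from the 5th to the 95th. Member medians run from -0.23 (both drugs against psilocybin at 3 mg/kg) to 0.12 (psilocybin at 3 mg/kg against vehicle), and lie outside the thick grey bars for both drugs at 1 mg/kg against vehicle and for both drugs against psilocybin at either dose.

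The subunit classes had medians close to each other, and differences between them were not tested. Against vehicle their medians were 0.05 to 0.09 after psilocybin at 1 mg/kg, 0.08 to 0.16 at 3 mg/kg, -0.03 to 0.02 and -0.15 to -0.10 after ketanserin at 1 and 3 mg/kg, and -0.14 to -0.10 and -0.13 to -0.04 with both drugs at these doses. The cytosolic ribosomal protein genes had medians of 0.09, 0.24, -0.01, -0.20, -0.12 and -0.06 in the same 6 comparisons. The nuclear respiratory chain genes had 0.10, 0.17, -0.02, -0.16, -0.12 and -0.12. Both lists thus had the sign of the members in each of the 6.

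The rest of the mitochondrial translation pathway was read from fixed lists with 69 tested symbols. They hold other ribosome proteins (4 tested, such as Dap3 and Ptcd3), translation factors (12, such as Tufm, which brings charged tRNA to the ribosome), mitochondrial aminoacyl-tRNA synthetases (20), ribosome assembly factors (17), transcription and insertion factors (6, such as Tfam and Oxa1l) and protein genes of the mitochondrial genome (11). In the 6 comparisons with vehicle 0 of 420 values passed edgeR's adjusted threshold, and 8 (1.9%) had an unadjusted p under 0.05, against 2.19% of values over all genes tested. The lowest was that of Yars2, the mitochondrial tyrosyl-tRNA synthetase, with both drugs at 3 mg/kg (log2 fold change -0.50, SE 0.147, unadjusted p = 0.00235, edgeR adjusted p = 0.999). In the same comparison Lrpprc, which stabilises mitochondrial messages, was at -0.22 (SE 0.0966), the initiation factor gene Mtif3 at 0.34 (SE 0.143), and Mt-nd4 and Mt-nd4l at 0.59 (SE 0.262) and 0.32 (SE 0.151). Yars2 after ketanserin at 1 mg/kg (-0.31, SE 0.147), Taco1, an activator of Mt-co1 translation, after ketanserin at 3 mg/kg (-0.52, SE 0.242) and Trub2, a pseudouridine synthase, after psilocybin at 3 mg/kg (-0.30, SE 0.135) are the others. These 7 genes are named after their values were seen. The values with both drugs at 3 mg/kg include its replicate 4, which stood apart, and were not computed without that library. The synthetases differed in sign from the members after psilocybin at 1 mg/kg, with 4 of 20 above 0 and a median of -0.11, against 57 of 73 and 0.08, and this difference between lists was not tested.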

How the data were processed

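Gene counts and FPKM were deposited by the authors for 36387 records. Values in the count table are raw counts of reads per gene, and the FPKM values are the authors' counts scaled for gene length and library size, per the file headers. The notes on processing by the submitters name featureCounts 1.5.0-p3, HISAT2 2.0.5 and StringTie 1.3.3b, and rat build rn6. Libraries were poly-A selected and strand-marked by the dUTP method, per the labels' protocols. Total counts were 12783067 to 18538414, and 3842 unnamed assembled transcripts took 1.99 to 4.46% of a library and were kept in totals and tests.

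Counts were fitted in R 4.3.3 with edgeR 4.0.16 (filterByExpr, 17404 genes; TMM; 1 coefficient per group over all 28 libraries; 21 residual degrees of freedom). The robust quasi-likelihood F test was used two-sided, with Benjamini-Hochberg adjustment across every gene tested and a call at 0.05. SE and 95% intervals come from that fit. DESeq2 1.42.0 was an alternative, beside other size factors, no filter, the compared groups alone, other library totals, a prior count of 2 in place of 0.125, a shorter NRF1 motif and leaving out each library. Log2 CPM for the score used a prior count of 0.5. The steps were also run on simulated counts with genes drawn independently, which does not cover the shared movement of members. The outcome of that run is not used here.

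Members and lists were chosen with earlier results of these data known. The named genes are Mrpl36, the 2 members with the lowest p above and the 2 below vehicle in each comparison with vehicle, the member with the lowest p in each interaction, the 3 highest and the 3 lowest by FPKM, and the 3 most and the 3 least variable. Others are said to be chosen after their values were seen, or are given as counts and ranges with examples. Marker lists without Pecam1 and Hba-a1, which were not analysed here, gave the marker sums; astrocyte (985 to 1329 CPM), microglia (120 to 158), endothelium (77.8 to 130), blood (238 to 723) and striatum (102 to 147) sums complete them. The excitatory neuron sum uses 4 markers, and 1 more of the list is not reported here. Promoter coordinates are those of RefSeq on GRCr8 and gene coordinates those of the deposited table on rn6, which were not converted.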

Additional observations from a re-analysis of the deposited data

Results flagged for a closer look

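Within each group of 4 libraries, the highest or lowest library of each of 20 named members and of the member score was compared with the rest by Dixon's criterion. Of 147 groups of values 13 (8.84%) exceeded it. Independent values exceed it by chance in about 1 of 20. That rate is no yardstick here, because some named members were picked for large spread or low p in these data. Members also move together between libraries. Replicate 1 of psilocybin at 3 mg/kg accounted for 6: Mrpl17 at 125 CPM, Mrpl19 at 28, Mrpl3 at 82.9, Mrpl33 at 61.9 and Mrpl54 at 113, each above the other 3 libraries, and the member score at 0.588. Its TMM factor, 0.905, was below that of every other library. In the same group Mrps2 was at 60.3 CPM in replicate 2, above the others. Mrpl53 was at 21.8 CPM in replicate 1 of ketanserin at 1 mg/kg and at 31.2 in replicate 1 of ketanserin at 3 mg/kg, far above the other libraries of each group. Mrps9 was at 54.5 CPM in replicate 2 of psilocybin at 1 mg/kg, above the others, and at 36 in replicate 4 of ketanserin at 1 mg/kg, below the others. The member score of this last library was -0.293, below the rest of its group. Mrpl36 was at 2.16 CPM in replicate 2 of both drugs at 3 mg/kg, above the others.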

How the results depend on the processing

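Under alternatives 920 values were computed for 61 results. Of these values 862 kept their direction and side of the threshold or moved by less than the spread between replicates. For medians of members that spread was 0.271, larger than the size of each median in the main fit. A turn in sign could thus count as kept, so this share says little about the direction of the medians. With DESeq2 the count of called members for psilocybin at 1 mg/kg against vehicle was 1 in place of 0, and Mrpl36 passed there (log2 fold change 3.68, adjusted p = 0.0325), while 14 edgeR alternatives gave it 3.35 to 4.24 with adjusted p of 0.758 to 1.00. For any difference among the 7 groups, the count of called members was 0 to 1 and the adjusted p of Mrpl36 8.52e-04 to 0.590 when single libraries were left out. It was 0.0426 with RLE size factors, 0.0257 with no filter and 0.0434 with other library totals. When single libraries were left out, the log2 fold change of Mrpl36 ran from -0.39 to 0.51 for psilocybin at 3 mg/kg, -0.95 to 0.11 and -1.61 to 0.070 for ketanserin at 1 and 3 mg/kg, -1.61 to 1.07 for both drugs at 3 mg/kg and -0.99 to 2.18 for the interaction at 3 mg/kg. Replicate 1 of vehicle gave the turned values of the first 3 (0.20 also without replicate 2 of psilocybin at 3 mg/kg), and replicate 2 of both drugs at 3 mg/kg those of the last 2. Mrpl53 ran from -0.16 to 3.54 for ketanserin at 1 mg/kg, turned by its replicate 1, and Mrps10 from -0.37 to 0.073 for psilocybin at 3 mg/kg, turned by replicate 4 of vehicle. None of these reversed values had passed the test, and the cause was not tested. Medians of the members turned in sign under at least 1 alternative in 8 of 12 comparisons, each by less than the spread between replicates. The order of members by counts per kilobase held the same 10 highest as by FPKM. The shorter NRF1 motif TGCGCA was in 24.1% of member and 9.17% of protein-coding promoters. No paired analysis was possible because the labels give no replicate numbers. With 4 libraries a group and few reads for Mrpl36 and Mrpl53, the intervals of single genes, not depth alone, limit what can be called.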
